A study of Homo sapiens with 12 samples.

Results

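The transcripts described here are the RNAs of 10 small nucleolar RNA (snoRNA) host genes: GAS5, SNHG1, DANCR, SNHG5, ZFAS1, SNHG8, EPB41L4A-AS1, SNHG6, SNHG7 and SNHG12. They were taken by Ensembl gene ID from a fixed list, out of 31707 genes with values in these data. In the order above, the IDs are ENSG00000234741, ENSG00000255717, ENSG00000226950, ENSG00000203875, ENSG00000177410, ENSG00000269893, ENSG00000224032, ENSG00000245910, ENSG00000233016 and ENSG00000197989. RNA was measured in U373-MG, an established human glioblastoma cell line, in 12 libraries of 4 replicates per group. The groups were RNA immunoprecipitated (IP) with an antibody against endogenous ADAR3, RNA immunoprecipitated with pre-immune serum, and input RNA. ADAR3 was the endogenous protein of these cells, which had been crosslinked with ultraviolet light before lysis and sonication. The labels do not say whether replicates were separate cultures, so p-values describe only how these libraries varied, and that variation may be technical.

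snoRNAs of the box C/D class guide ribose methylation of ribosomal and other RNAs, and those of the box H/ACA class guide pseudouridylation. In human cells most of them are cut out of introns, and the exons of the host genes listed above are spliced into non-coding transcripts. Several such transcripts are known to begin with a terminal oligopyrimidine tract as ribosomal protein mRNAs do, to be loaded on ribosomes and to be turned over by nonsense-mediated decay. ADAR3 belongs to the adenosine deaminases acting on RNA, binds double-stranded RNA and is not known to edit by itself. The comparison asks whether each host transcript made up more or less of the RNA recovered with it than of the control libraries.

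The RefSeq annotation on GRCh38.p14 places all 10 as long non-coding RNAs, matched by symbol. GAS5 (chr1:173863901-173869045, minus strand) spans 11 snoRNA genes, and SNHG1 (chr11:62851978-62855885, minus strand) spans 9. SNHG12 (chr1:28578538-28582983, minus strand) holds 4, ZFAS1 (chr20:49278178-49289260, plus strand) 3, and both SNHG5 (chr6:85677007-85678733, minus strand) and SNHG7 (chr9:136724594-136728184, minus strand) 2. The remaining hosts SNHG8 (chr4:118278762-118279823, plus strand), EPB41L4A-AS1 (chr5:112160526-112162501, plus strand), DANCR (chr4:52712394-52720697, plus strand) and SNHG6 hold 1 each. The snoRNAs of SNHG5, SNHG6 and ZFAS1 are named as box C/D, those of SNHG7, SNHG8, EPB41L4A-AS1 and DANCR as box H/ACA. The spans of 5 hosts also overlap other genes, with snoRNA and microRNA genes left out of this search. GAS5 overlaps ZBTB37 and GAS5-AS1, SNHG7 overlaps DIPK1B and LOC124900276, and SNHG12 overlaps TRNAU1AP. SNHG6 overlaps MCMDC2, and EPB41L4A-AS1 overlaps EPB41L4A. The strand setting of the read counting is not given in the sources used here. The reads of these 5 may include or have lost reads of the overlapping gene.

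The 30 bases around the annotated start are shown for the hosts whose first transcribed base was C, because a C followed by pyrimidines is the mark of a terminal oligopyrimidine transcript. Each line gives 15 bases before the start and 15 from it on, 5′ to 3′ on the strand of the gene, from RefSeq on GRCh38.p14. Capitals mark the unbroken pyrimidine run that holds the first transcribed base.
SNHG12, chr1:28581859-28581888, minus strand: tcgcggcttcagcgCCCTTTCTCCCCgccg
ZFAS1, chr20:49278627-49278656, plus strand: aggaagccattcgTTCTTTCgcgtctgcgg
SNHG5, chr6:85678719-85678748, minus strand: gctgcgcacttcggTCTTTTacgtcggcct
SNHG7, chr9:136728170-136728199, minus strand: gcttcccttctcgTCCTCTgcgtgcgccgg
SNHG1, chr11:62855871-62855900, minus strand: ccggggagattcgTTCTCatttttctactg
SNHG8, chr4:118278747-118278776, plus strand: aaggcctcggCCTTTCacattcgggaagcg

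Of the 9 hosts with a start window in the reference table, these 6 began with C, compared with 15.0% of 27305 gene windows. SNHG6 had no window, so its start was not examined. A first base C followed without a break by pyrimidines, at least 4 in all, was present in 4 of the 9 (SNHG12, ZFAS1, SNHG5 and SNHG7) and in 5.45% of all windows. From the first base on, the run was 11 bases in SNHG12, 5 in ZFAS1 and SNHG5, 4 in SNHG7, 3 in SNHG1 and 1 in SNHG8. At the 1 start held for GAS5, the window begins with A and has no pyrimidine run. Other starts of GAS5 were not examined, so this does not show that its transcripts lack such a tract. DANCR begins with G and EPB41L4A-AS1 with T. The table holds 1 start per gene, which for ZFAS1 and SNHG12 lies 464 and 1110 bases inside the gene span given above, so other annotated starts of these genes have other windows. ZFAS1 and SNHG8, which both begin with C, had the highest and the lowest ratio to input in ADAR3 IP among the 8 host genes compared below.

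Levels are given in CPM, the reads of a gene scaled to 1000000 reads assigned to genes in that library. ADAR3 IP libraries held 23999234 to 30156884 assigned reads, pre-immune IP libraries 1875461 to 4946149 and input libraries 4873428 to 12772412. IP and input values were normalized separately by the authors, so the reads were recovered from them and scaled to library totals, and differences between an IP and input were not tested. CPM gives the share of a library and not the amount of RNA recovered. A gene's CPM also depends on its length, so only levels of the same gene are compared.

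DANCR could not be followed. It had 3, 0, 0 and 2 reads in input replicates 1 to 4, or 0.235 CPM at most, and the input libraries at 0 reads allow up to 0.296 and 0.616 CPM (3 reads, counting error only). The IP values hold no entry for DANCR, so it was not analysed there. Every gene with an entry had at least 1 read over the IP libraries, so the missing entry may stand for 0 reads. Whether its low input count reflects the level of the transcript or the assignment of reads to this gene ID was not tested. EPB41L4A-AS1 was measured in all 12 libraries, but its mean of 44.6 normalized counts over the IP libraries lay below the minimum of 50 set for testing. The other 8 host genes passed that minimum, with means from 165 for SNHG6 to 694 for ZFAS1.

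In ADAR3 IP most host transcripts made up a smaller share of the reads than in input. For 7 of the 8 host genes that passed the minimum (GAS5, SNHG1, SNHG5, SNHG6, SNHG7, SNHG8 and SNHG12), all 4 ADAR3 IP libraries lay below all 4 input libraries. This held for 31.7% of 11107 genes that passed the minimum and had values in both tables. Relative to input, the median log2 ratio in ADAR3 IP was -1.36 over the 8 host genes and 0.0019 over the 11107 genes. ZFAS1 was the exception among the 8: its mean was 1.18 times the input mean and its libraries overlapped with input. No host gene had all ADAR3 IP libraries above input, against 29.2% of the 11107 genes.

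**Figure D1:**
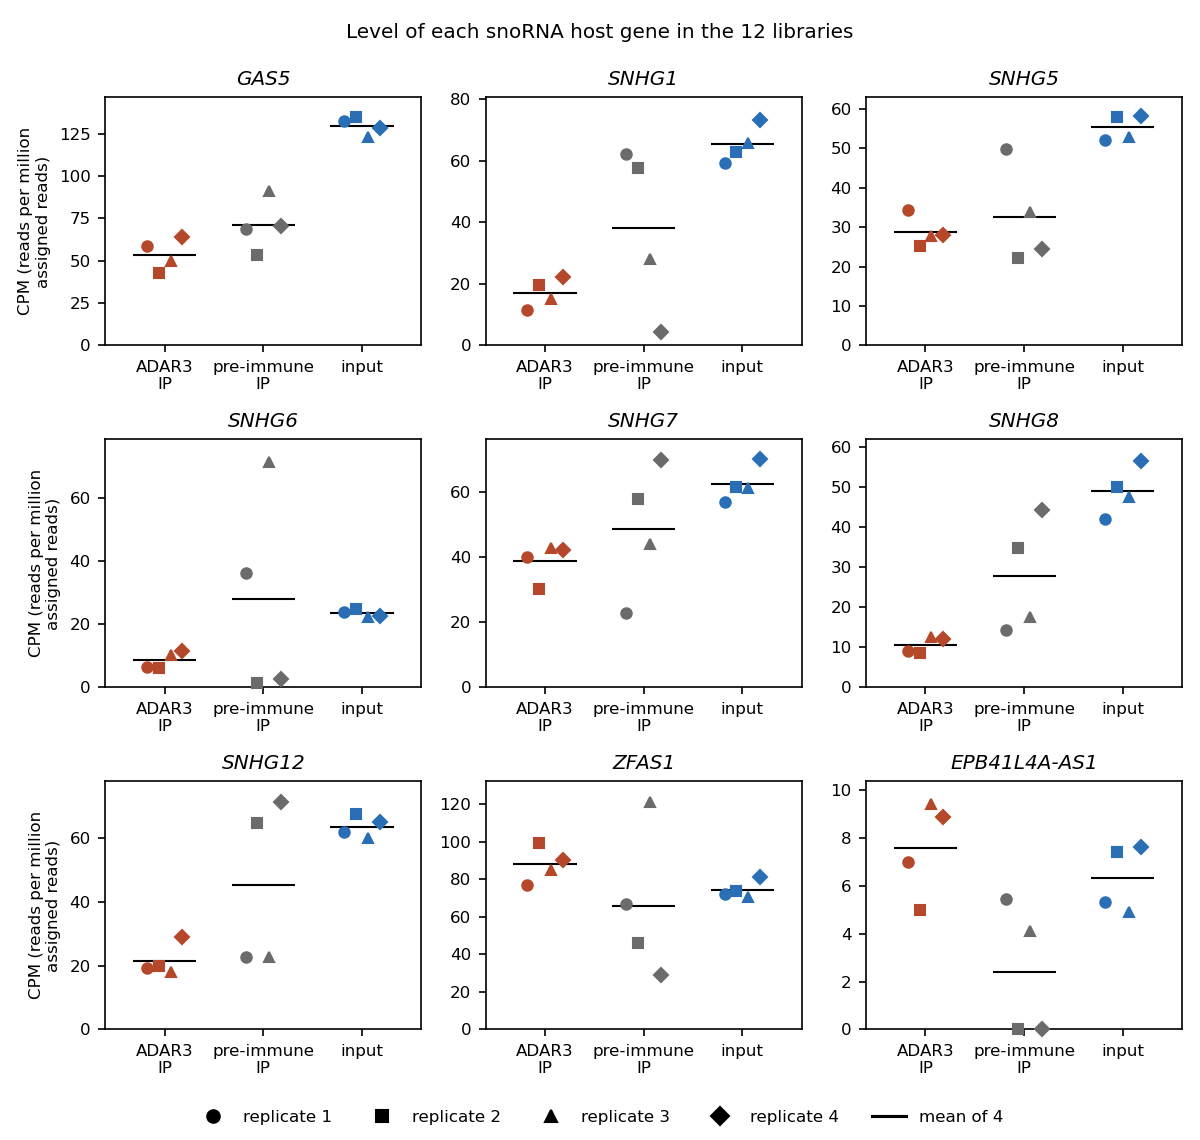
CPM of 9 host genes (vertical axes from 0, scaled per gene) in the 3 groups of libraries. Each symbol is 1 library, its shape the replicate number, and the line is the mean of 4. Input replicates lie close together and pre-immune replicates far apart: SNHG6 ranged from 22.4 to 24.9 CPM in input and from 1.43 to 71.5 CPM in pre-immune IP.

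SNHG8, the host of the box H/ACA snoRNA SNORA24, was the lowest of the 8 relative to input. Its levels in ADAR3 IP replicates 1 to 4 were 9.11, 8.69, 12.5 and 12.2 CPM, and in input 41.9, 49.99, 47.4 and 56.4 CPM. In pre-immune IP they were 14.4, 34.7, 17.5 and 44.3 CPM. The ADAR3 IP libraries thus stayed below every other library, and the lowest pre-immune library was replicate 1. The mean of 10.6 ± 1.99 CPM in ADAR3 IP was 4.61-fold below the input mean of 48.9 ± 6.04 CPM (SD, n = 4 each), and only 0.81% of the 11107 genes had a lower ratio.

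SNHG1, which carries a cluster of box C/D snoRNAs, came next. ADAR3 IP held 11.6, 19.7, 15.2 and 22.3 CPM of it and input 59.3, 62.6, 65.9 and 73.2 CPM, a 3.80-fold difference of the means. Pre-immune IP held 62.3, 57.6, 28.0 and 4.27 CPM. Pre-immune replicate 4, the shallowest library, had only 8 SNHG1 reads and lay below all ADAR3 IP libraries, whereas the other 3 pre-immune libraries lay above them.

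SNHG12, host of 1 box C/D and 3 box H/ACA snoRNAs, stood at 19.3, 19.96, 18.0 and 28.9 CPM in ADAR3 IP. Input held 62.0, 67.7, 59.9 and 65.1 CPM, and the input mean was 2.96-fold higher. Pre-immune replicates 1 and 3 were close to ADAR3 IP, at 22.8 CPM each, and replicates 2 and 4 were close to input, at 64.7 and 71.4 CPM. The pre-immune group thus held both low and input-like values of this transcript.

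SNHG6, the host of SNORD87, stood at 24.0, 24.9, 22.4 and 22.8 CPM in input. ADAR3 IP held 6.39, 6.07, 10.4 and 11.5 CPM, 2.74-fold below input by the means. Pre-immune IP held 36.2, 1.43, 71.5 and 2.67 CPM, from 179, 4, 314 and 5 reads. Pre-immune replicates 1 and 3 were above every input library and replicates 2 and 4 below every ADAR3 IP library. On the log2 scale of normalized counts its SD of 2.67 between pre-immune replicates was the largest of the 8 tested host genes, while in CPM the SD of ZFAS1, at 40.1, exceeded the 33.2 of SNHG6.

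GAS5, known for accumulating in growth-arrested cells, showed a narrower pre-immune spread. Its levels were 133, 135, 123 and 128 CPM in input, 58.5, 42.7, 49.5 and 63.7 CPM in ADAR3 IP, and 68.5, 53.3, 90.9 and 70.4 CPM in pre-immune IP. Both IPs lay entirely below input, ADAR3 IP by 2.42-fold and pre-immune IP by 1.83-fold, and they overlapped with each other. SNHG5, the host of SNORD50A and SNORD50B, behaved in the same order. It stood at 52.1, 57.99, 52.9 and 58.1 CPM in input, 34.2, 25.3, 27.7 and 28.0 CPM in ADAR3 IP, and 49.7, 22.2, 33.9 and 24.5 CPM in pre-immune IP, so that the 2 IP groups overlapped widely and both stayed below input.

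SNHG7, the host of SNORA17A and SNORA17B, was the least reduced of the 7. ADAR3 IP held 40.1, 30.4, 42.9 and 42.3 CPM and input 57.2, 61.7, 61.4 and 70.2 CPM, a 1.61-fold difference, with 19.4% of all genes at a lower ratio. Pre-immune IP held 22.8, 57.9, 43.95 and 69.8 CPM and overlapped with both other groups.

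ZFAS1, transcribed head to head with the protein-coding gene ZNFX1 and host of SNORD12, SNORD12B and SNORD12C, differed from these. It stood at 76.7, 99.4, 85.1 and 90.4 CPM in ADAR3 IP and at 72.2, 73.7, 70.6 and 81.2 CPM in input. All ADAR3 IP libraries exceeded 3 of the input libraries, but replicate 1 fell short of input replicate 4. Without ADAR3 IP replicate 1 its ADAR3 IP lay entirely above input, as it did for 3512 of the 11107 genes. The same held without input replicate 4, as it did for 3316 genes. With all libraries, 62.3% of the 11107 genes had a lower ratio to input than ZFAS1. Pre-immune IP held 66.5, 46.1, 121 and 28.8 CPM, above and below both other groups. With the low gene EPB41L4A-AS1, ADAR3 IP and input also overlapped, at 7.01, 4.97, 9.40 and 8.88 CPM against 5.32, 7.41, 4.92 and 7.62 CPM. Pre-immune replicates 1 and 3 held 5.46 and 4.10 CPM of it, from 27 and 18 reads. Replicates 2 and 4 held 0 reads, which allows up to 1.07 and 1.60 CPM there.

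**Figure D2:**
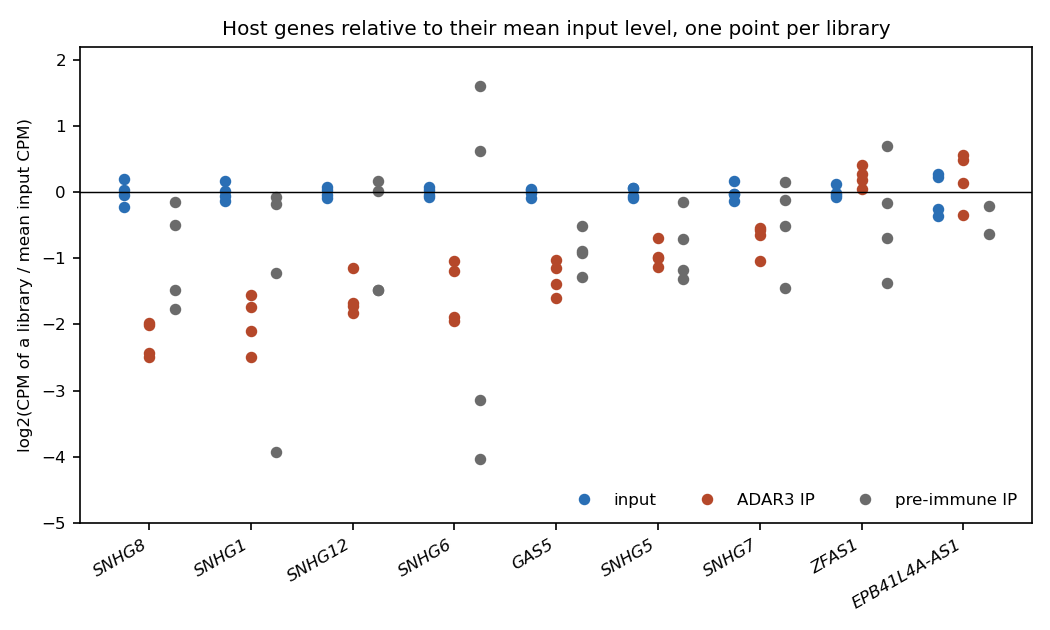
The log2 of each library's CPM over the mean input CPM of the same gene (vertical axis), with 9 host genes ordered by their mean in ADAR3 IP and 1 point per library. The 4 ADAR3 IP points lie below all input points for SNHG8, SNHG1, SNHG12, SNHG6, GAS5, SNHG5 and SNHG7 and overlap with them for ZFAS1 and EPB41L4A-AS1, whose 2 pre-immune libraries at 0 reads are not drawn.

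Pre-immune IP gave wider and more mixed values relative to input. For 2 of the 8, GAS5 and SNHG5, all pre-immune libraries lay below all input libraries, compared with 16.4% of the 11107 genes, and for 0 they lay above, compared with 5.9%. The median log2 ratio over the 8 was -0.62, against -0.05 over the 11107 genes. Of the 8, 7 had a pre-immune mean below the input mean, as did 52.8% of the 11107 genes. The mean of SNHG6 was 1.19 times that of input. That value rested on replicate 3: without it the log2 ratio of SNHG6 changed from 0.25 to -0.81. The count of 2 became 3 without pre-immune replicate 1, 3 or 4, and 4 without input replicate 1.

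The host transcripts did not vary together across the pre-immune libraries. SNHG7, SNHG8 and SNHG12 were higher in both replicates 2 and 4 than in either of replicates 1 and 3. SNHG6, ZFAS1, SNHG5 and EPB41L4A-AS1 were higher in both replicates 1 and 3 than in either of the others. This split was read off these same values. The share of all genes that it separates was not counted, so it is not given as a trait of the host genes. Replicates 2 and 4 were also the shallower pair, at 2796268 and 1875461 reads against 4946149 and 4391041, and the part of depth in these patterns was not tested. On the log2 scale of normalized counts, the median SD between replicates over the 8 was 0.099 in input, 0.25 in ADAR3 IP and 0.81 with serum. Over all 11107 genes it was 0.11, 0.21 and 0.81, so the host genes spread about as much as the typical gene did.

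The test of ADAR3 IP against pre-immune IP was made on the deposited normalized counts, on the log2(normalized count + 1) scale with limma, and p-values were adjusted over all 11112 genes by Benjamini-Hochberg. None of the 8 host genes passed an adjusted p of 0.05 in either direction (0 higher and 0 lower, against 2.33% of tested genes called higher and 1.74% called lower). At an unadjusted limma p under 0.05 the count was 1 of 8, SNHG8. The share of all tested genes at that unadjusted p was not counted, so this is not given as a trait of the host genes. The quasi-likelihood test of edgeR, applied to recovered reads, called 0 of 9 host genes, against 6.9% of its genes called higher and 1.69% lower. An unadjusted edgeR p under 0.05 was found for 2 of the 9, again without a count over all genes. DESeq2 on the recovered reads called 1, SNHG8, lower (5.63% of its genes were called lower and 8.75% higher). The median limma log2 difference over the 8 was -0.42, and 0.25 over all tested genes. With edgeR at the same minimum of 50, a run not planned beforehand, these medians were -0.76 and -0.00063. DESeq2 gave -0.48 over 9 host genes and -0.061 over all its genes.

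The normalized count of SNHG8 averaged 94.3 ± 17.0 with the ADAR3 antibody and 264 ± 142 with pre-immune serum (SD, n = 4 each). Its log2 difference was -1.32 ± 0.58 (SE), with a 95% interval of -2.60 to -0.049 and a limma adjusted p of 0.265. Of the 8, it was the only host gene whose ADAR3 IP libraries in CPM all lay below all pre-immune libraries, which 5.28% of the 11107 genes did, while 0 of the 8 lay entirely above, as 10.7% did. The authors' deposited comparison gave it a log2 fold change of -1.47 with an adjusted p of 0.00794. These are the values that DESeq2 gave on the recovered reads, so they are not a second call. Whether this gene is called thus depends on the test, and over all alternatives its adjusted p ranged from 0.00794 to 0.519.

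For SNHG12 the log2 difference was -0.98 ± 0.49 (SE; limma adjusted p = 0.336), with an interval of -2.06 to 0.11. GAS5 differed by -0.47 ± 0.24 (SE; limma adjusted p = 0.332), with an interval of -0.996 to 0.05. ZFAS1 was the only one of the 8 with a positive estimate, 0.53 ± 0.36 (SE; limma adjusted p = 0.457), and its interval of -0.25 to 1.31 holds both 0 and the median of all genes. The intervals of SNHG1, SNHG5, SNHG6 and SNHG7 all include 0 as well, around estimates of -0.70, -0.19, -0.38 and -0.30. On recovered reads the estimates were larger for SNHG6, at -1.67 with edgeR and -1.74 with DESeq2, and for SNHG1, at -1.16 and -1.24, though neither passed the threshold (adjusted p of 0.458 and 0.269 for SNHG6, and 0.419 and 0.238 for SNHG1). The SNHG6 interval, from -3.05 to 2.29, leaves even the direction unknown, and its estimate turned to 0.24 without pre-immune replicate 1 and to 0.53 without replicate 3. The estimate of SNHG1 moved to -1.54 (adjusted p = 0.0577) without pre-immune replicate 4, and that of SNHG5 to 0.04 without replicate 1.

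**Figure D3:**
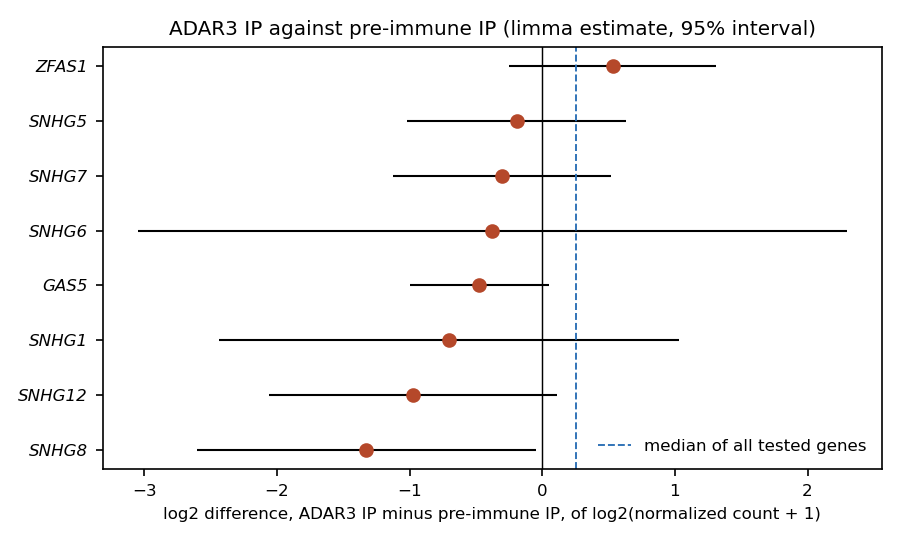
The limma log2 difference of ADAR3 IP over pre-immune IP (horizontal axis, log2 of normalized count + 1) for the 8 tested host genes, with 95% intervals not adjusted for multiple tests. The dashed line is the median of all tested genes, 0.25. Only the interval of SNHG8, from -2.60 to -0.049, leaves out 0. The intervals of SNHG8, SNHG12 and GAS5 lie wholly below that median, and the others include it. That median depends on the method: over all genes it was -0.00063 with edgeR at the same minimum and -0.061 with DESeq2.

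The make-up of the host-gene reads can be read within each library, where scaling between libraries cancels. The 9 measured host genes together took 0.0530% ± 0.00272 of input reads, 0.0275% ± 0.00229 of ADAR3 IP reads and 0.0359% ± 0.00516 of pre-immune reads (SD, n = 4). ZFAS1 supplied 14.0% ± 0.355 of these reads in input, 17.4% ± 8.09 in pre-immune IP and 32.2% ± 4.46 in ADAR3 IP. Its share was at least 29.2% in every ADAR3 IP library, above all 8 other libraries, of which the highest was pre-immune replicate 3 at 27.9%. A share of this sum also rises when the other host genes fall. In CPM, ZFAS1 in ADAR3 IP was 1.18 times its input mean, and its libraries overlapped with input and with pre-immune IP. SNHG8 went the other way against input, with 9.22% ± 0.724 in input, 8.1% ± 4.89 in pre-immune IP and 3.85% ± 0.565 in ADAR3 IP. SNHG5 kept nearly the same share in ADAR3 IP and input, at 10.5% ± 1.72 and 10.4% ± 0.198.

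Ratios of reads of 2 genes in the same library put the same reads in another form and add no separate support. ZFAS1 had 8.41, 11.4, 6.82 and 7.43 reads per SNHG8 read in ADAR3 IP and 1.72, 1.47, 1.49 and 1.44 in input. Pre-immune IP gave 4.63, 1.33, 6.91 and 0.651, so its replicate 3 reached the range of ADAR3 IP and its replicates 2 and 4 lay below input. For ZFAS1 over GAS5 the ratios were 1.31, 2.33, 1.72 and 1.42 in ADAR3 IP and 0.544, 0.547, 0.575 and 0.633 in input. The pre-immune ratios of 0.971, 0.866, 1.33 and 0.409 overlapped with ADAR3 IP at replicate 3. SNHG7 had 0.931 to 0.986 reads per SNHG1 read in input, 1.55 to 3.46 in ADAR3 IP and 0.367 to 16.4 in pre-immune IP. Gene length enters each ratio alike in every library, so a ratio is compared between libraries and says nothing of which gene was more abundant. These gene pairs were picked after their levels had been seen, and no test was made on them.

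**Figure D4:**
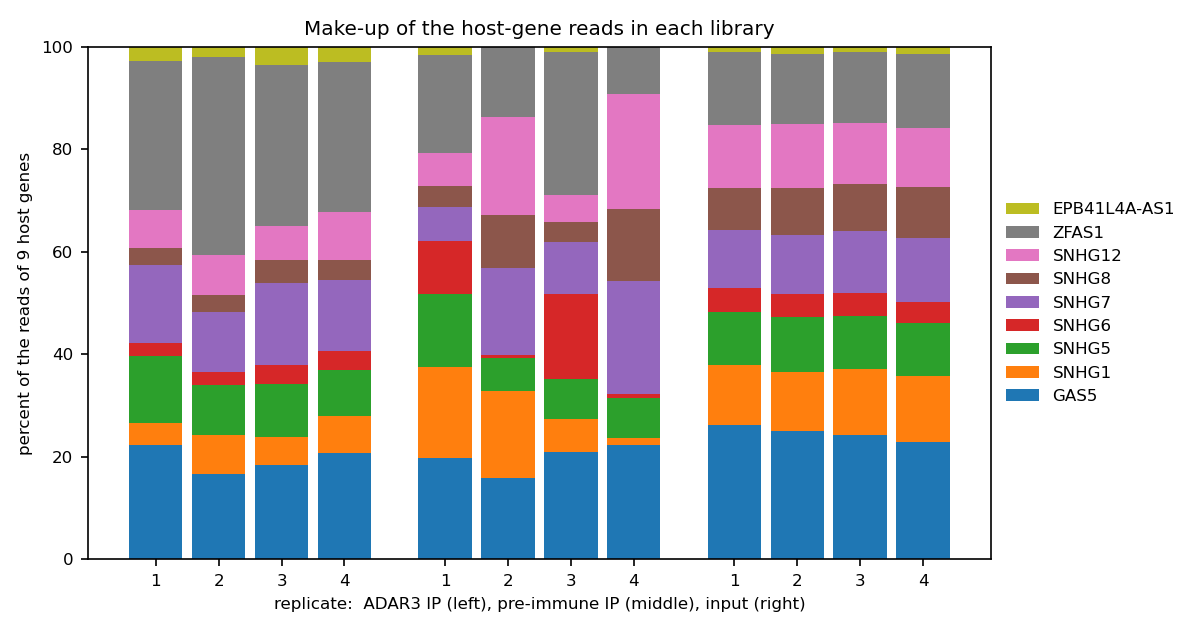
Share of each host gene in the summed reads of 9 host genes (vertical axis, percent), 1 bar per library, with replicates 1 to 4 of the ADAR3, pre-immune and input libraries from left to right. ZFAS1 takes 29.2% to 38.7% in ADAR3 IP and 13.6% to 14.4% in input, and the make-up changes from bar to bar in pre-immune IP.

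The profile of the group across the 12 libraries was set beside that of every other gene, by the root mean square difference of log2(CPM + 1) values centred per gene. Among the 8 host genes, GAS5 lay nearest to their mean profile, at 0.19, and SNHG6 farthest, at 1.08. Each host gene is part of that mean and other genes are not, so the 2 kinds of distance are not measured alike. The 2 nearest genes that are not on the list were ENSG00000126457, at 0.093, and ENSG00000085662, at 0.11, the smallest values among the 11107 genes compared. ENSG00000126457 stood at 224 ± 25.9 CPM in input, 91.7 ± 7.23 with the ADAR3 antibody and 127 ± 33.1 with serum (SD, n = 4). The files do not pair gene IDs with symbols, and neither gene is named here.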

How the data were processed

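Per the labels, ribosomal RNA was depleted and strand-specific libraries were amplified from 12 samples; the molecule field names polyA RNA instead. The submitters' processing notes name GRCh38, STAR 2.7.7a, featureCounts and DESeq2 but not what each was used for. The authors deposited a normalized signal, that is read counts over library size factors, in separate tables for the IP and input libraries. Beside these values the authors deposited log2 fold changes and p-values of ADAR3 IP against pre-immune IP. All values were whole multiples of 1 read (100%, tolerance 0.001 reads), so reads were recovered and scaled to CPM. limma 3.58.1 (R 4.3.3; variance trend, pseudocount 1, mean of at least 50 normalized counts over the IP libraries, Benjamini-Hochberg at 0.05) compared the IPs; its script was tested on simulated data. edgeR 4.0.16 and DESeq2 1.42.0 on recovered reads, other scalings, pseudocounts and minimums, a replicate block and leaving out each library were alternatives. Comparisons with input count libraries that do not overlap. All 10 list members are named, plus the 2 genes of most similar profile. The members and settings were chosen with earlier results of these data known. The planned lists of other host genes, intronic snoRNAs, snoRNP and decay factors and cell type markers were not analysed here, because the reference holds no Ensembl IDs, so the glial identity of the cells was not checked. Same-numbered ADAR3 and pre-immune libraries deviated together at correlations of -0.0016 to 0.0236, so numbers were not taken as pairs.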

Additional observations from a re-analysis of the deposited data

How the results depend on the processing

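The counts of 0 host genes called higher and 7 with ADAR3 IP entirely below input held in every alternative run. DESeq2 called 1 host gene lower, SNHG8, where limma called 0. The count with ADAR3 IP entirely above input was 0 to 1 when single libraries were left out, and that with pre-immune IP entirely below input 2 to 4. With median-ratio factors over the 12 libraries the latter was 1. Leaving out single libraries moved the ADAR3 IP over pre-immune IP estimate of SNHG5 between -0.34 and 0.040 and that of SNHG6 between -1.28 and 0.53; the other estimates kept their direction. With the replicate block, limma called 0 host genes higher and 0 lower, and SNHG8 had an adjusted p of 0.40. Scaling to library size or with TMM factors moved the median of all genes from 0.25 to 0.33 and 0.39, and that of the 8 host genes from -0.42 to -0.34 and -0.28. The median of all genes was lower with edgeR at a minimum of 50, at -0.00063, and with DESeq2, at -0.061. At a minimum of 40, chosen after seeing the data to admit EPB41L4A-AS1, its log2 difference was 3.32 ± 1.67 (SE; limma adjusted p = 0.332), while edgeR gave 1.64 (adjusted p = 0.652). It had 45 pre-immune reads in all, with 0 in 2 of the 4 libraries. No library stood apart from the other 3 in the 27 sets of 4 CPM values examined with Dixon's test.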
